A study of Mus musculus with 31 samples.

Results

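Peritoneal tumours of AB1-mCherry, a murine mesothelioma line tagged with the red fluorescent protein mCherry, were sequenced as whole tumours (n = 5) and as cancer cells sorted from peritoneal tumours (n = 5). The comparison took every peritoneal library, 10 of the 31 libraries in the series, and set the 2 kinds of sample side by side over the 12141 genes listed in both deposited tables. There are 54456 genes for whole tumours and 12461 entries for sorted cells. Both groups came from female BALB/c mice of 12 weeks that received no treatment and were sampled 10 days after inoculation, and the sorted cells had been selected as positive for mCherry and negative for CD45, the surface protein that marks leukocytes. Subcutaneous tumours (5 whole, 5 sorted) and pleural tumours (6 whole, 5 sorted) of the same line, strain, sex, age and day served for the comparison between sites. All tumours descend from 1 line, grown from cells that had been picked for bright mCherry, and the mice keep their immune system. Whole tumours were soaked in RNAprotect, broken up mechanically and purified with the RNeasy Plus Mini kit, while sorted cells were stored in a cell reagent after sorting and purified with the RNeasy Plus Micro kit, so the kind of sample cannot be told apart from the handling that goes with it.

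A tumour holds cancer cells together with host cells: macrophages and other leukocytes, the endothelium of its vessels, the pericytes that wrap them, and fibroblasts that lay down collagen. A sort for cancer cells is meant to leave the transcripts of leukocytes and vessels behind. Immediate early genes such as Fos, Jun and Egr1 are switched on within minutes by growth factors, stress or tissue handling, and their messenger RNAs are short-lived. Heat shock genes are induced by unfolded protein through the heat shock factor Hsf1.

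Values are TPM (a transcript abundance corrected for length and depth) rescaled to the same total of 1000000 over the shared genes, which held 96.7 to 97.2% of TPM in peritoneal whole tumours and 97.6 to 97.8% in sorted cells. Differences are means of log2(TPM + 1) in whole tumours minus those in sorted cells, a scale that understates the ratio for genes near or below 1 TPM. The 2 tables were normalized separately, so whole tumours were not tested against sorted cells. A gene was called higher or lower where the means differed at least 8-fold (3 log2 units) and no library of one kind overlapped with the other. Between 14280 and 14731 genes reached 1 TPM in a whole tumour, against 11557 to 12055 genes in a sorted library. Correlations between libraries (Pearson r over genes, log scale) were 0.982 to 0.989 within whole tumours, 0.960 to 0.989 within sorted cells and 0.875 to 0.922 across the kinds. Read depth is unknown.

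Libraries are numbered here by mouse. The deposited names number peritoneal whole tumours 2, 3 and 4 as 3, 4 and 5, so pairs by mouse and by deposited number differ. Several libraries stood apart. Whole tumour 7 had 2008 TPM of the haemoglobin gene Hbb-bs, against 69.0 to 181 TPM in the other whole tumours, and 47.1 TPM of the B cell gene Cd79a, against 12.0 to 21.9 TPM. Whole tumour 4 carried intestinal transcripts, with 210 TPM of the mucosal glycoprotein gene Dmbt1, against at most 0.411 TPM in the other peritoneal whole tumours (deposited TPM). Whole tumour 2 had the most antibody transcripts, and sorted library 3 the most immediate early and heat shock transcripts. Outside the peritoneum, sorted subcutaneous libraries 1 and 2 held leukocyte RNA, with 13.2 and 7.65 TPM of Ptprc, which encodes CD45, against 0.233 to 1.61 TPM in the other subcutaneous sorted libraries. Of 29 named genes whose difference was called against the subcutaneous site, 22 were called without those libraries and 7 were not (Rac2, Ighm, Arg1, Ctsk, Eng, Mmp2 and Krt8).

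Of the 12022 genes at 1 TPM or more in at least 5 of the 10 libraries, 289 were higher in whole tumours (2.4%) and 20 were lower (0.166%). These shares are the background for the list counts that follow. Genes listed for whole tumours alone stand outside them. Of those, 2649 averaged 1 TPM or more in peritoneal whole tumours and 340 averaged 10 TPM or more, and they may include genes listed for sorted cells under older symbols. The higher genes included those of macrophages, antigen presentation, complement, chemokines, vessels and antibody-secreting cells, and they held 2.83 to 4.08% of TPM in whole tumours, against 0.08 to 0.26% in sorted cells. Of the 20 lower genes 13 were immediate early genes, heat shock genes, the neutrophil attractants Cxcl1 and Cxcl2 or Ccn1, and the other 7 had predicted or pseudogene names. The lower genes held 0.03 to 0.05% of TPM in whole tumours, against 0.73 to 1.07% in sorted cells. At any fold, 5011 genes were higher without overlap (41.7%) and 539 were lower (4.48%). The median difference over all genes was 0.38 (quartiles 0.09 and 0.68), which became 0 under median-of-ratios scaling, so only differences well beyond it are read. Just inside the 8-fold limit stood the chemokine receptor Cxcr4 (3.03) and the interferon-induced chemokine Cxcl9 (3.01), and just outside it the cartilage matrix gene Cilp (2.99) and the lysosomal thiol reductase gene Ifi30 (2.98). Predicted names made up 25 of the higher genes, among them the largest difference of all, Gm28437 (7.79). The largest difference in the other direction was that of Rps12l1, with under 0.001 TPM in whole tumours and 2187±382 TPM in sorted cells, and this gene is among the 7. The tables do not hold the same set of symbols, and the part of this in the differences of predicted and pseudogene names was not tested.

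**Figure D1:**
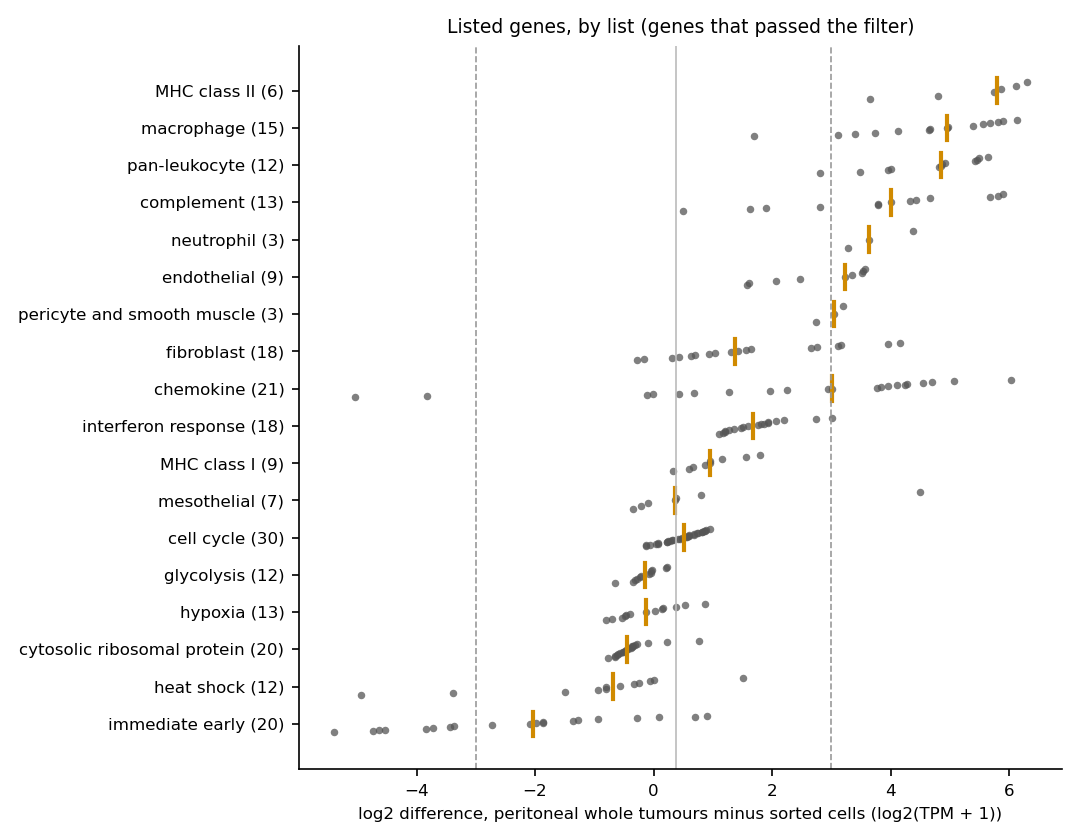
Log2 difference between peritoneal whole tumours and sorted cells (x axis, log2(TPM + 1)) for the genes of 18 lists (y axis, number of genes that passed the filter in parentheses). Each point is 1 gene, the orange bar is the list's median, the dashed lines mark 8-fold and the grey line the median of all genes (0.38). MHC class II genes lie farthest right (median 5.81) and immediate early genes farthest left (median -2.04).

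Macrophage genes were higher in whole tumours. Of the 15 macrophage genes that passed the filter, of 16 listed, 14 were higher (median difference 4.95, against 0.38 over all genes), and only Cd14, the lipopolysaccharide co-receptor, was not called. Csf1r, the receptor for the macrophage growth factor CSF1, had 135, 131, 148, 133 and 157 TPM in whole tumours, against 6.09, 1.56, 2.71, 1.97 and 1.23 TPM in sorted cells (difference 5.39, SE 0.30). The whole tumours lay close together, and even the highest sorted library was far under them. Apoe, which encodes a lipid carrier that tissue macrophages secrete, averaged 1167±179 TPM in whole tumours and 16.6±7.19 TPM in sorted cells (SD, n = 5 each; difference 6.13). The summed level of the 15 genes was 3652 to 5790 TPM in whole tumours, against 58.3 to 169 TPM in sorted cells, so sorted cells held 2.18% of the whole-tumour mean. In bulk RNA, fewer cells of a type and less RNA per cell cannot be told apart.

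Genes common to all leukocytes gave a like picture, with 11 of 12 higher (median 4.86). Ptprc itself had 42.0, 33.9, 33.6, 38.8 and 63.3 TPM in whole tumours, against 0.968, 0.380, 0.464, 0.359 and 0.239 TPM in sorted cells. All sorted libraries were thus below 1 TPM for the transcript of the protein used to exclude leukocytes. Rac2, the GTPase of blood cells that drives the oxidative burst, averaged 166±30.7 TPM in whole tumours and 2.40±0.911 TPM in sorted cells. The summed level of the 12 genes in sorted cells was 3.07% of that in whole tumours (36.2 to 70.2 TPM in sorted cells, against 1262 to 2058 TPM in whole tumours). Sorted library 1 had the highest sum of both lists among sorted cells.

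MHC class II genes, which present peptides to helper T cells, were all higher among the 6 of 8 that passed (median 5.81). Cd74, the invariant chain that chaperones MHC class II, had 1533, 793, 1104, 1904 and 2721 TPM in whole tumours, against 40.8, 16.8, 25.2, 11.1 and 17.6 TPM in sorted cells. Among whole tumours replicate 7 was highest and replicate 2 lowest, and none approached the sorted cells. H2-Eb1, a class II beta chain, had the largest difference of the list at 6.31, with 611±315 TPM in whole tumours and 6.72±4.17 TPM in sorted cells. Outside the list, the protease gene Ctsc, whose product activates serine proteases of granulocytes and lymphocytes, was at 299±87.9 TPM in whole tumours and 4.40±2.85 TPM in sorted cells.

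Complement transcripts were higher in whole tumours as well. Of 13 measured genes 9 were higher (median 4.00), among them the 3 chains of C1q, the recognition part of the classical pathway, and C3, the protein on which all the pathways converge. C1qa had 581, 399, 491, 668 and 774 TPM in whole tumours, against 20.5, 12.3, 6.94, 3.56 and 6.40 TPM in sorted cells (difference 5.91). C3 averaged 228±74.2 TPM in whole tumours and 9.69±3.52 TPM in sorted cells.

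Among chemokines, 11 of 21 were higher and 2 were lower (median 3.01). Ccl8, an attractant of monocytes and T cells, led them with 235, 174, 173, 313 and 340 TPM in whole tumours, against 5.94, 2.95, 1.60, 0.997 and 3.41 TPM in sorted cells (difference 6.04). Ccl12, a mouse ligand of the monocyte receptor Ccr2, averaged 64.5±15.9 TPM in whole tumours and 1.02±0.765 TPM in sorted cells. Ccr2 itself was at 38.1±13.4 TPM in whole tumours and 0.475±0.297 TPM in sorted cells, and Cx3cr1, the fractalkine receptor of patrolling monocytes, at 24.5±7.05 and 0.272±0.178 TPM in whole tumours and sorted cells. Of the 7 monocyte genes measured, Ccr2 and Cx3cr1 were higher and Nr4a1 lower (median -0.28). Fn1, which encodes fibronectin and is on the monocyte list, averaged 1026±149 TPM in whole tumours and 1241±122 TPM in sorted cells.

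Neutrophil genes were higher in all 3 of the 13 that could be compared. S100a9, a calcium-binding protein abundant in neutrophils, had 99.1, 25.3, 6.18, 29.0 and 80.2 TPM in whole tumours, against 1.14, 2.99, 1.07, 5.71 and 0.309 TPM in sorted cells. The lowest whole tumour came close to the highest sorted library. Its partner S100a8 (3.27) fell below the 8-fold limit without whole tumour 1 (2.91), without whole tumour 7 (2.98) under median-of-ratios scaling (2.95) and within pairs of the same mouse number (2.81). The count of the list was 1 under median-of-ratios scaling. The gelatinase gene Mmp9, also listed with matrix genes, averaged 560±118 TPM in whole tumours and 27.2±12.1 TPM in sorted cells. Mmp9 was highest in whole tumour 3 (757 TPM), where S100a9 (6.18 TPM) and S100a8 (8.15 TPM) were lowest.

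Apart from predicted names, antibody genes had the largest differences. Igkc, the kappa light chain constant region, had 295, 2028, 234, 550 and 1332 TPM in whole tumours, against 8.13, 0.531, 5.81, 3.50 and 2.23 TPM in sorted cells (difference 7.22, SE 0.75). Ighm, the IgM heavy chain, followed with 118, 539, 77.8, 202 and 444 TPM in whole tumours, against 2.53, 0.273, 1.44, 1.00 and 0.473 TPM in sorted cells (6.74, SE 0.59). Whole tumours 2 and 7 were highest for both, and tumours 1 and 3 lowest. Sdc1, which encodes the plasma cell surface protein CD138, was not called, at 56.0 TPM in whole tumours and 41.5 TPM in sorted cells.

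Most lymphocyte genes are listed in the whole-tumour table and not in the sorted-cell table, where every entry has at least 1.26 TPM in its highest library, so they are given as deposited TPM in whole tumours with no comparison. This holds for 15 of 16 T cell genes, 10 of 10 natural killer cell genes and 10 of 11 B cell genes. The T cell receptor constant region Trbc2 averaged 36.3±10.9 TPM, the CD3 chain gene Cd3g 26.7±4.23 TPM and the killer cell granule gene Nkg7 26.7±2.93 TPM (SD, n = 5). Jchain, which joins IgM and IgA subunits, had 24.5, 166, 21.9, 58.3 and 125 TPM. Ighg1, the IgG1 heavy chain, had 381 TPM in whole tumour 2 and 3.49 to 23.4 TPM in the others, and Igha, the IgA heavy chain, 28.4 to 61.6 TPM. Cxcl13, the B cell attractant that peritoneal macrophages are known to make, was at 70.3±20.0 TPM. Of the lymphocyte genes listed in both tables, the T cell kinase gene Lck was at 24.1±6.08 TPM in whole tumours and 6.27±1.75 TPM in sorted cells, without overlap but under 8-fold, and Cd79a overlapped.

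Among mast cell and serosal macrophage genes 3 of 6 were higher. The mast cell tryptase gene Tpsab1 was at 49.1±10.3 TPM in whole tumours and 0.885±0.842 TPM in sorted cells, and the related Tpsb2, listed for whole tumours alone, at 30.4±5.47 TPM. Of the 5 serosal macrophage genes that passed, of 10 listed, Saa3, an acute phase protein, and Folr2, a folate receptor of resident macrophages, were called. Folr2 was even across whole tumours, at 18.3 to 20.9 TPM, against 0.245 to 1.09 TPM in sorted cells. Icam2 (2.57) and the transcription factor gene Gata6 (0.79), which marks resident peritoneal macrophages but also mesothelium, were not called.

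**Figure D2:**
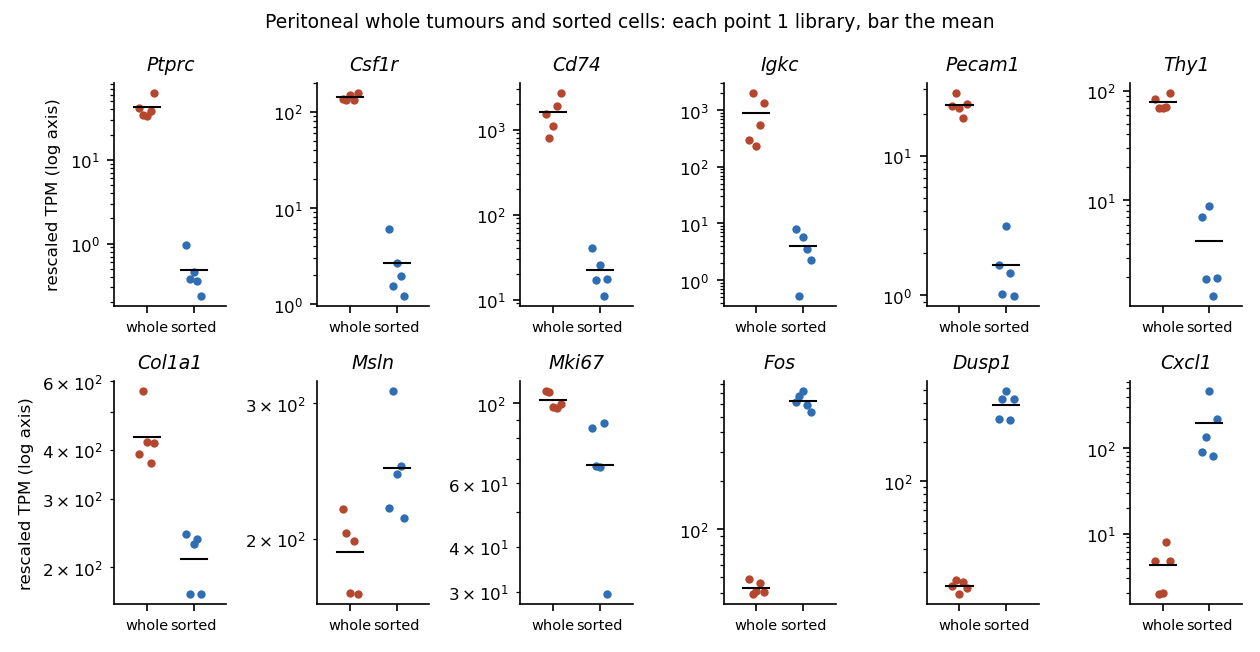
Levels of 12 genes in peritoneal whole tumours (left, red) and sorted cells (right, blue), in rescaled TPM on log axes whose range differs between panels. Each point is 1 library and the bar is the mean of 5. Leukocyte, antibody, endothelial and fibroblast surface genes lie higher in whole tumours, Col1a1 is apart by less, Msln overlaps, and Fos, Dusp1 and Cxcl1 lie higher in sorted cells.

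Endothelial genes were higher in whole tumours, with a smaller median difference than the macrophage, MHC class II and pan-leukocyte lists. Of 9 that passed, of 16 listed, 5 were called and all 9 had a positive difference (median 3.23), where the lower quartile of all genes was 0.09. Pecam1, the junction protein CD31, had 22.9, 28.4, 22.2, 18.6 and 23.4 TPM in whole tumours, against 1.66, 1.02, 3.13, 1.44 and 0.995 TPM in sorted cells (difference 3.23, or 2.91 and not called under median-of-ratios scaling). Plvap, a protein of endothelial fenestrae, had 32.7 to 44.5 TPM in whole tumours, against 0.633 to 5.20 TPM in sorted cells. The summed endothelial level in sorted cells was 8.13% of that in whole tumours, and sorted library 3 held the most. The count was 3 without sorted libraries 2 and 5.

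The contractile genes of pericytes and smooth muscle stood near the limit. Acta2, smooth muscle actin, had 20.2, 25.9, 30.0, 35.4 and 44.9 TPM in whole tumours, against 4.15, 1.07, 3.38, 3.16 and 1.34 TPM in sorted cells (3.20). Its partner Tagln was called at 3.05 and Mcam, an adhesion protein of vessel walls, at 2.74 was not. Neither Acta2 (2.87) nor Tagln (2.77) was called under median-of-ratios scaling, nor were they called within pairs of the same mouse number (2.92 and 2.65) or without sorted libraries 2 and 5 (2.78 and 2.45).

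Fibroblast genes divided. Of 18 that passed, of 20 listed, 4 were higher (Thy1, Cxcl12, Fbln1 and Pi16) and the median was 1.37. Thy1, a surface glycoprotein of fibroblasts that T cells also carry in mice, had 84.8, 68.8, 68.9, 71.6 and 95.9 TPM in whole tumours, against 7.05, 1.89, 8.79, 1.34 and 1.97 TPM in sorted cells (4.16). Cxcl12, a chemokine that retains leukocytes in tissue, averaged 27.4±16.8 TPM in whole tumours and 0.658±0.610 TPM in sorted cells. The matrix glycoprotein gene Fbln1 (3.17) dropped under the limit without whole tumour 7 (2.99), under median-of-ratios scaling (2.95) within pairs (2.93) and without sorted libraries 2 and 5 (2.98). Under each of these settings 2 fibroblast genes were called.

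The collagens that fibroblasts are known for did not separate the samples in the same way. Col1a1, a chain of type I collagen, had 391, 566, 419, 371 and 416 TPM in whole tumours, against 243, 171, 229, 236 and 171 TPM in sorted cells. The groups did not overlap, but the difference was 1.04. Pdgfrb, a growth factor receptor of fibroblasts and pericytes, averaged 16.5±4.60 TPM in whole tumours and 4.65±1.58 TPM in sorted cells (1.64). The summed fibroblast list in sorted cells came to 76.6% of the whole-tumour mean, whereas the summed macrophage list came to 2.18%. Of the other matrix genes, Spp1, which encodes osteopontin, was at 3215±458 TPM in whole tumours and 5805±584 TPM in sorted cells (-0.86), while Mmp2, a gelatinase, and Timp3, a protease inhibitor bound to matrix, were higher in whole tumours (3.54 and 3.16). Timp3 was not called under median-of-ratios scaling (2.90). In all, 4 of 23 matrix and remodelling genes were higher and the median was 1.05, and 2 were higher under median-of-ratios scaling or without sorted libraries 2 and 5. Tnc, the glycoprotein tenascin C, was low, at 6.65±1.58 TPM in whole tumours and 0.990±0.831 TPM in sorted cells.

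Few genes of neighbouring tissues could be compared. The adipocyte genes Lpl and Fabp4, both also expressed by macrophages or endothelium, were higher in whole tumours (3.92 and 3.74). Lpl, lipoprotein lipase, was at 30.9 to 33.4 TPM in whole tumours, against 0.486 to 2.44 TPM in sorted cells. Red cell genes followed whole tumour 7: Hba-a1, an alpha globin gene, had 186, 108, 159, 78.2 and 2208 TPM in whole tumours, against 7.66, 66.0, 9.77, 12.9 and 11.2 TPM in sorted cells, and the count of 2 of 4 red cell genes was 0 without that tumour and 4 without sorted library 2. The globin genes come in near-identical copies, between which reads could have been divided. The liver genes are listed for whole tumours alone, and 2 of 10 averaged 1 TPM or more. Ahsg, which encodes the plasma protein fetuin A, had 1.05 to 4.11 TPM, albumin (Alb) at most 0.800 TPM, and Ttr, which encodes the carrier transthyretin, 9.03 TPM in whole tumour 4 and at most 0.0381 TPM in the others. Of 12 pancreatic acinar genes only the elastase gene Cela1 was listed in both tables, and it was not called. Of the intestinal genes listed for whole tumours alone, several stood apart in whole tumour 4. Zg16, a goblet cell granule protein, had 24.4 TPM there, against at most 0.444 TPM in the other whole tumours, and the epithelial adhesion gene Epcam 13.6 TPM, against at most 0.887 TPM. Lgals4, Fabp1 and Muc2 were also highest in that tumour, at 12.4, 4.38 and 1.66 TPM. Cdhr5, a microvillar cadherin listed with intestinal genes, was abundant in both, at 442±76.3 TPM in whole tumours and 535±24.2 TPM in sorted cells.

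Mesothelial and mesothelioma genes were mostly not called. Msln, mesothelin, the surface protein of mesothelium and mesothelioma, had 218, 204, 170, 199 and 169 TPM in whole tumours, against 219, 311, 243, 249 and 213 TPM in sorted cells (-0.35), with overlap. Krt8, a keratin of simple epithelia and mesothelium, was at 28.9±11.0 TPM in whole tumours and 31.9±2.70 TPM in sorted cells. Of 7 mesothelial genes that passed, of 20 listed, Slpi alone was called. Slpi, a secreted inhibitor of leukocyte proteases, had 34.0, 62.5, 50.4, 50.7 and 38.4 TPM in whole tumours, against 1.11, 0.980, 2.08, 0.459 and 1.11 TPM in sorted cells (4.50). The retinoic acid synthesis gene Aldh1a2 and the transcription factor gene Wt1, both of normal mesothelium, are listed for whole tumours alone, at 33.9±5.67 and 3.85±0.428 TPM.

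Cell cycle, glycolysis, hypoxia and cholesterol synthesis genes gave no call in either direction. All 30 cell cycle genes passed (median 0.52), and their sum in sorted cells was 79.2% of that in whole tumours. Mki67, the proliferation antigen Ki-67, was at 102±5.46 TPM in whole tumours and 67.2±23.3 TPM in sorted cells. Sorted library 5, at 29.5 TPM, was the lowest. Ribosomal protein genes leaned the other way (median -0.45, 0 of 20 called), as Rpl3 shows with 600±28.6 TPM in whole tumours and 1025±70.4 TPM in sorted cells. Glycolysis (median -0.15) and hypoxia genes (median -0.12) lay near 0 and below the lower quartile of all genes (0.09). The median of all genes moves by 0.38 with the scaling.

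Genes of the interferon response were positive in 18 of 18 (median 1.68) but only Cxcl9 reached the limit. A positive sign was common, as the lower quartile of all genes was 0.09. Cxcl9, which attracts activated T cells, had 92.0, 19.4, 33.3, 77.6 and 127 TPM in whole tumours, against 14.0, 1.86, 10.2, 4.14 and 6.75 TPM in sorted cells (3.01), and it was not called under median-of-ratios scaling (2.64) or within pairs (2.75). Gbp4, an interferon-induced GTPase, averaged 74.4±42.7 TPM in whole tumours and 11.1±8.75 TPM in sorted cells. The sum of the 18 genes varied within each kind, from 536 to 1895 TPM in whole tumours and from 174 to 673 TPM in sorted cells, with replicate 2 lowest in both. The MHC class I list was positive in 9 of 9 without a call (median 0.95), and Tapbp, tapasin, which loads peptides on class I molecules, had its largest difference (1.80).

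Among immune checkpoint genes, 2 of the 9 that passed, of 15 listed, were higher (median 0.61), where 2.4% of all genes were. The other 6 are listed for whole tumours alone, each with a mean of 1 TPM or more there. Vsir, which encodes the inhibitory receptor VISTA of myeloid cells, had 37.7, 33.4, 40.3, 34.5 and 42.1 TPM in whole tumours, against 0.806, 0.356, 0.512, 0.384 and 0.324 TPM in sorted cells (4.71). Lag3, an inhibitory receptor of lymphocytes, was at 12.5±2.85 TPM in whole tumours and 0.336±0.0689 TPM in sorted cells (3.31). Cd274, the ligand PD-L1, was at 15.6±6.39 TPM in whole tumours and 4.14±2.24 TPM in sorted cells, without overlap but under 8-fold.

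Immediate early genes were lower in whole tumours. Among 20 immediate early genes 8 were lower and 0 higher (median -2.04). Fos, a subunit of the transcription factor AP-1, had 48.5, 39.2, 40.9, 46.3 and 40.2 TPM in whole tumours, against 621, 672, 724, 595 and 533 TPM in sorted cells (-3.84, SE 0.10). Both groups were tight and far apart. Fosb, another AP-1 subunit, had the largest difference of the list (-5.40), with 3.64, 4.00, 3.18, 4.74 and 3.98 TPM in whole tumours, against 165, 252, 365, 118 and 201 TPM in sorted cells. Dusp1, a phosphatase that switches off MAP kinases, averaged 15.7±1.46 TPM in whole tumours and 390±87.3 TPM in sorted cells (-4.53). The orphan nuclear receptor gene Nr4a1, also on the monocyte list, averaged 9.38±0.883 TPM in whole tumours and 294±131 TPM in sorted cells. Zfp36, whose product destroys AU-rich messenger RNAs, averaged 20.6±4.17 TPM in whole tumours and 563±214 TPM in sorted cells. Jun (-3.37), Egr1 (-3.43) and Atf3 (-3.72), all transcription factor genes, complete the 8. The matricellular gene Ccn1, a serum-responsive gene outside the list, was lower too (-3.47). The list's sum was 754 to 873 TPM in whole tumours, against 4070 to 7960 TPM in sorted cells, with sorted library 3 highest.

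The 2 called heat shock genes were Hspa1b and Dnajb1, a chaperone of the HSP70 family and its co-chaperone. Hspa1b had 4.75, 6.61, 5.62, 5.16 and 5.41 TPM in whole tumours, against 385, 42.1, 402, 289 and 161 TPM in sorted cells (-4.94, SE 0.60). Whole tumours were even, while sorted library 2 was the lowest and libraries 1 and 3 the highest of the sorted cells. Dnajb1 had the same order, with 22.8 to 25.9 TPM in whole tumours, against 440, 94.0, 451, 295 and 236 TPM in sorted cells. The near-identical copy Hspa1a was low in both, at 0.671±0.403 TPM in whole tumours and 4.58±3.73 TPM in sorted cells, and reads shared by the copies could have been divided between them. The constitutive chaperones of the list, such as Hsp90ab1 and Hspd1, were not called.

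Cxcl1 and Cxcl2, ligands of the neutrophil receptor Cxcr2, were the chemokines lower in whole tumours. Cxcl1 had 4.83, 1.95, 1.99, 7.91 and 4.78 TPM in whole tumours, against 90.2, 133, 463, 80.6 and 221 TPM in sorted cells (-5.04). Cxcl2 had at most 1.58 TPM in whole tumours, against 14.4 to 79.4 TPM in sorted cells. Sorted library 3 was highest for both. Storage, sorting and the purification kit differ between the kinds of sample, and their part in these differences was not tested.

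The sequences just before the start of Fos, Dusp1 and Hspa1b are given because these genes carry the excess in sorted cells and are known to answer to growth factors, stress or heat. They were taken from the RefSeq set for GRCm38.p6 and cover the 250 bases before the start, on the gene's strand, at chr12:85473640-85473889 (plus strand), chr17:26508473-26508722 (minus strand) and chr17:34959239-34959488 (minus strand). Capitals mark a match to TGACGT, the core of the cyclic AMP response element, in Fos, to the full element TGACGTCA in Dusp1, and to GAANNTTC, a pair of heat shock element units, in Hspa1b.
Fos: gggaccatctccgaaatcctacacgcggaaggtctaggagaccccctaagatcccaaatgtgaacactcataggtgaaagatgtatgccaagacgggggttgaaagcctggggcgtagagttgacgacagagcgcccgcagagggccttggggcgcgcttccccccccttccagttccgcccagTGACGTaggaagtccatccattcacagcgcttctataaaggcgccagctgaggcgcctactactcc
Dusp1: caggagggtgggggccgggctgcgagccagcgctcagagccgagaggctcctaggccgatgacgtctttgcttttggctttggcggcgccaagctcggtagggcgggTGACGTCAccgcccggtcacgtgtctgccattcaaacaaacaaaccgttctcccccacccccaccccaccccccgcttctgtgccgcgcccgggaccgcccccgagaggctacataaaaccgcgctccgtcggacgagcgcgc
Hspa1b: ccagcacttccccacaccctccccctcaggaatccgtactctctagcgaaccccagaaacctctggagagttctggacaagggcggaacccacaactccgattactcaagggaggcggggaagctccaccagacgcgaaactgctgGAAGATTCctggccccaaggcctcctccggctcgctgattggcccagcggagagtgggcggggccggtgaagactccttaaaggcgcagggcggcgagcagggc
The matches begin 66, 143 and 104 bases before the start.

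The motifs were chosen after the values were seen and searched on both strands in windows from 250 bases before to 50 bases after the start. TGACGT was in 5 of the 16 immediate early genes with a window (Fos, Egr2, Atf3, Dusp1 and Btg2) and in 7.51% of all 32851 windows. TGACGTCA, which contains TGACGT, was in 2 of 16 (Dusp1 and Btg2) and in 1.79% of all windows. GAANNTTC was in 7 of 9 heat shock genes and in 7.86% of all windows. Of the 7, Hspa1b was called lower, while Hspd1, Hspe1, Hsph1, Hspb1, Bag3 and Hspa1a were not. A match of letters is a description of the window and not a measured site.

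Mitochondrially encoded genes differed among themselves. Of 13, mt-Nd3 was called higher, 8 had a difference of 0.97 or more, and the rest lay between -0.12 and 0.38. mt-Nd3, a subunit of respiratory complex I, had 1351, 1289, 908, 1940 and 1337 TPM in whole tumours, against 186, 337, 86.1, 51.8 and 85.9 TPM in sorted cells (3.46, SE 0.50). mt-Nd1, another complex I subunit, averaged 3016±789 TPM in whole tumours and 700±210 TPM in sorted cells (2.12). mt-Co1, a subunit of cytochrome oxidase from the same genome, had 8297 to 9274 TPM in whole tumours and 7810 to 9611 TPM in sorted cells (0.03). The 8 were the 7 complex I genes and mt-Atp8.

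Whether the gap between whole tumours and sorted cells differed by site was tested with limma, as the whole-minus-sorted difference at the peritoneal site minus that at another site. The contrast is signed, so where whole tumours lie below sorted cells a larger difference is a narrower gap. Each kind was compared within its own table, so a constant offset between tables cancels. Against the subcutaneous site, 622 of 12128 genes had a larger difference at the peritoneum (5.13%) and 220 a smaller one (1.81%) at a Benjamini-Hochberg adjusted p below 0.05, so 73.9% of the called genes were larger, which was 56.4% under median-of-ratios scaling. Against the pleural site 163 were larger (1.34%) and 143 smaller (1.18%). At an unadjusted p below 0.05 there were 3144 and 2144 genes. The p-values measure the spread between these samples and treat all libraries as independent, although same-numbered ones were taken as a shared animal. With the mouse number as a block the total counts were 48 against the subcutaneous and 7 against the pleural site, and without peritoneal sorted libraries 2 and 5 they were 198 and 200. Without those libraries the balance against the pleural site turned, with 59 larger and 141 smaller, as it did with limma's arrayWeights (167 larger, 404 smaller), without sorted library 5 (99 and 123), without sorted library 2 (91 and 93) and without pleural whole tumour 5 (143 and 148). The peritoneal libraries stand in both comparisons, so the 2 are not independent of each other.

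Mitochondrial genes differed between sites. Against each of the other sites, 8 of 13 had a larger difference at the peritoneum, 7 of them complex I subunits and the last mt-Atp8. Over all genes 5.13% were larger against the subcutaneous and 1.34% against the pleural site. The median difference of the 13 was 1.07 at the peritoneal, -0.05 at the subcutaneous and 0.02 at the pleural site. mt-Nd3 averaged 1365±370 TPM in peritoneal whole tumours and 149±116 TPM in peritoneal sorted cells, against 1529±334 and 1055±232 TPM in subcutaneous whole tumours and sorted cells. The contrast was 2.93 (SE 0.43, limma adjusted p = 0.000344), and its adjusted p ranged from 4.26e-06 to 0.0163 over the alternatives. Against pleural whole tumours at 1456±281 TPM and sorted cells at 993±207 TPM it was 2.91 (SE 0.42, limma adjusted p = 0.000441). The 5 peritoneal sorted libraries, at 51.8 to 337 TPM of mt-Nd3, lay under all sorted libraries of the other sites, at 766 to 1337 TPM, while the whole tumours of the 3 sites overlapped. With the mouse number as a block 7 of 13 held against the subcutaneous and 2 of 13 against the pleural site.

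**Figure D3:**
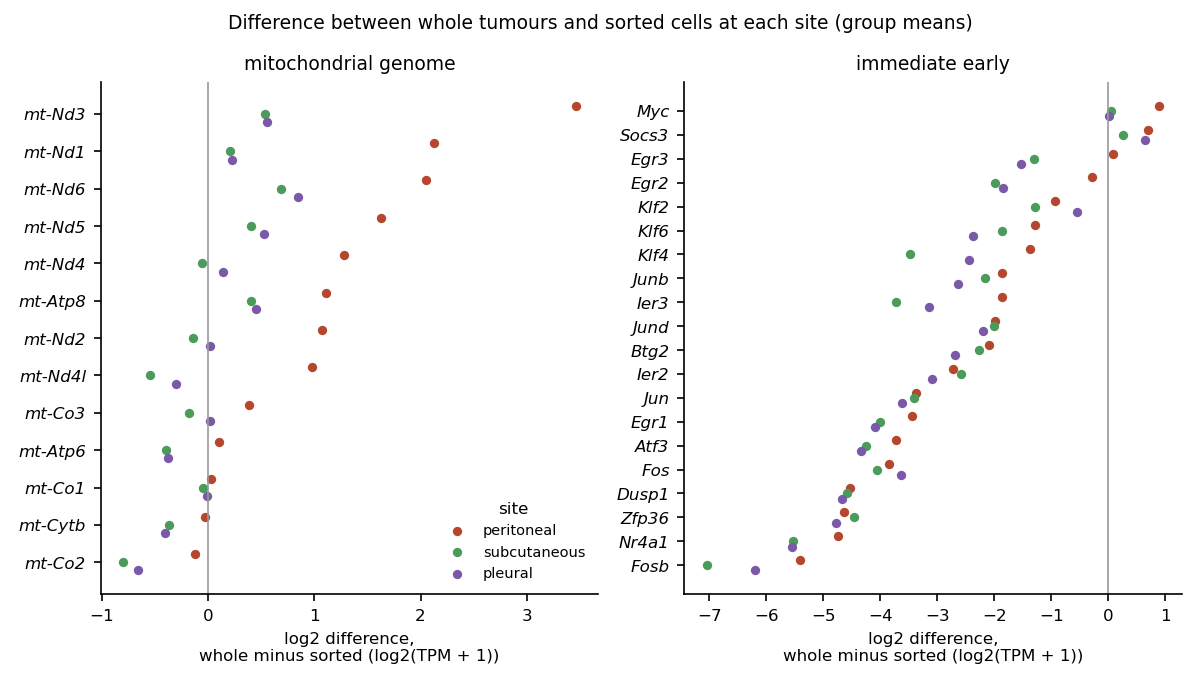
Log2 difference between whole tumours and sorted cells (x axis, group means of log2(TPM + 1)) at the peritoneal, subcutaneous and pleural site for 13 mitochondrial genes (left) and 20 immediate early genes (right). Each point is 1 gene at 1 site. mt-Nd3 lies at 3.46 at the peritoneal site, 0.54 at the subcutaneous and 0.56 at the pleural site, while mt-Co1 lies near 0 at all 3.

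The median difference of the immediate early genes was -2.04 at the peritoneal, -2.99 at the subcutaneous and -2.88 at the pleural site, and for a few genes the gap was narrower at the peritoneum. Fosb averaged 3.91±0.572 TPM in peritoneal whole tumours and 220±94.5 TPM in peritoneal sorted cells, against 4.94±0.962 and 887±439 TPM in subcutaneous whole tumours and sorted cells (contrast 1.64, SE 0.42, limma adjusted p = 0.0195, 0.000211 to 0.0909 over the alternatives, highest with the block). Against the subcutaneous site 4 of 20 differed (Fosb, Egr2, Ier3 and Klf4), and 2 of 20 without peritoneal sorted libraries 2 and 5 or 8 of 20 without subcutaneous sorted libraries 1 and 2. Against the pleural site 3 of 20 differed (Egr2, Egr3 and Ier3), and 0 without peritoneal sorted libraries 2 and 5. The shares of all genes with a larger difference were 5.13% against the subcutaneous and 1.34% against the pleural site. With the block 1 of 20 was called against the subcutaneous and 0 of 20 against the pleural site. Fos did not pass against either site, with contrasts of 0.21 (SE 0.25, limma adjusted p = 0.605) and -0.20 (SE 0.24, limma adjusted p = 0.693). Cxcl2 had a smaller gap at the peritoneum than at the pleura, with 0.869±0.459 TPM in peritoneal whole tumours and 31.5±27.8 TPM in peritoneal sorted cells, against 0.895±0.523 and 150±56.9 TPM in pleural whole tumours and sorted cells (contrast 2.46, SE 0.52, limma adjusted p = 0.0103, 0.000627 to 0.0915 over the alternatives, highest with the block). The inducible genes Sgk1, a kinase, and Tnfaip3, an inhibitor of NF-kappaB, differed from both sites (contrasts 2.10 and 2.23 against subcutaneous, 2.53 and 2.33 against pleural), and none of these 4 contrasts passed with the block (limma adjusted p 0.0848 to 0.153). Peritoneal Sgk1 averaged 15.1±3.2 TPM in whole tumours and 11.7±6.5 TPM in sorted cells, with overlap. Its whole and sorted means were 24 and 94 TPM at the subcutaneous and 21 and 103 TPM at the pleural site. Peritoneal Tnfaip3 overlapped too, at 10.9 to 15.0 TPM in whole tumours and 6.7 to 83.6 TPM in sorted cells.

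**Figure D4:**
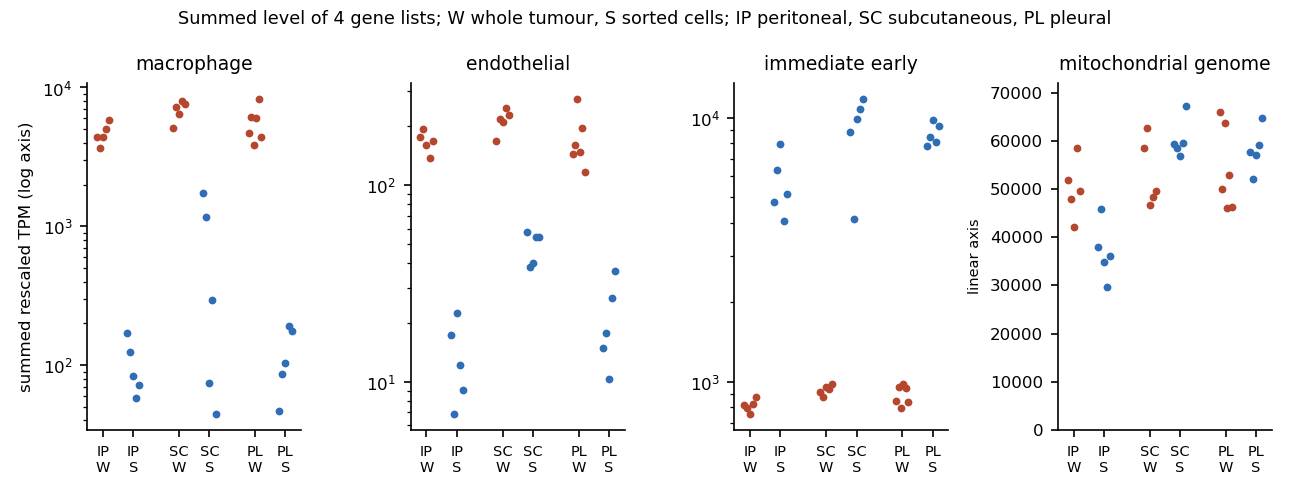
Summed rescaled TPM of 4 gene lists in every library of the 3 sites (IP peritoneal, SC subcutaneous, PL pleural), whole tumours (W, red) left of sorted cells (S, blue), with log axes except for the mitochondrial genes. Each point is 1 library. The macrophage sum of 3 subcutaneous (1744, 1175 and 295 TPM) and 2 pleural sorted libraries (191 and 178 TPM) lies above that of all peritoneal sorted libraries (58.3 to 169 TPM), and the mitochondrial sum of peritoneal sorted cells (29680 to 45900 TPM) lies under that of the other sorted cells.

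Most endothelial genes, but few fibroblast or matrix genes, had a larger difference at the peritoneal than at the subcutaneous site. Of 18 fibroblast genes 1 was called (Thy1) and of 23 matrix genes 3 (Lox, Mmp2 and Timp3), where 5.13% of all genes were called. Of 9 endothelial genes 7 had a larger difference against the subcutaneous site and 0 against the pleural site (0 at an unadjusted p below 0.05). The summed endothelial level was 38 to 58 TPM in subcutaneous sorted libraries, against 6.84 to 22.4 TPM in peritoneal ones, without overlap. In whole tumours it was 166.9 to 247.8 TPM at the subcutaneous and 137.5 to 192.5 TPM at the peritoneal site. Pecam1 averaged 23.1±3.51 TPM in peritoneal whole tumours and 1.65±0.873 TPM in peritoneal sorted cells, against 33.4±5.41 and 6.71±1.42 TPM in subcutaneous whole tumours and sorted cells (contrast 1.06, SE 0.32, limma adjusted p = 0.0409, 0.193 with the block and 0.0125 to 0.201 over the alternatives). The endothelial count was 4 without subcutaneous sorted libraries 1 and 2, and 0 with the block or without peritoneal sorted libraries 2 and 5. Thy1 differed by 2.20 (SE 0.43, limma adjusted p = 0.00392, 0.000369 to 0.0676 over the alternatives, highest with the block), with 78.0±12.0 TPM in peritoneal whole tumours and 4.21±3.45 TPM in peritoneal sorted cells, against 175±20.3 and 46.8±19.8 TPM in subcutaneous whole tumours and sorted cells. Igfbp3, which binds insulin-like growth factors, passed under all 32 alternatives, with 53.1±12.8 TPM in peritoneal whole tumours and 3.27±2.51 TPM in peritoneal sorted cells, against 81.3±22.5 and 36.3±8.74 TPM in subcutaneous whole tumours and sorted cells (contrast 2.71, SE 0.39, limma adjusted p = 0.000262). Acta2, Tagln, Plvap, Eng, Mmp2 and Timp3 also had larger differences at the peritoneum (contrasts 1.11 to 2.53), and none of them passed with the block. Without subcutaneous sorted libraries 1 and 2, Eng (0.93, limma adjusted p = 0.0714) and Mmp2 (1.54, limma adjusted p = 0.0925) did not pass.

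Some leukocyte and chemokine genes differed from the subcutaneous site. There 2 of 12 pan-leukocyte genes (Cd53 and Rac2) and 4 of 21 chemokine genes (Ccl2, Ccl7, Ccl11 and Cxcl14) had a larger difference. The share over all genes was 5.13%, and with the block 0 genes of either list were called. Against the pleural site 0 of 12 pan-leukocyte and 1 of 21 chemokine genes (Cxcl2) were called, where 1.34% of all genes were larger. Ptprc had a contrast of 0.78 (SE 0.61, limma adjusted p = 0.423) against the subcutaneous and 0.00 (SE 0.60, limma adjusted p = 0.999) against the pleural site, and 0 macrophage genes were called by limma against either (0 also at an unadjusted p below 0.05). Rac2 had a larger difference than at the subcutaneous site (1.93, limma adjusted p = 0.0437, 0.156 with the block and 0.0185 to 0.163 over the alternatives), as did the matrix-degrading protease gene Ctsk (2.69, limma adjusted p = 0.0335, 0.144 with the block and 0.0149 to 0.152 over the alternatives), the arginase gene Arg1 (2.88, limma adjusted p = 0.0222, 0.0129 to 0.154 over the alternatives, highest with the block) and Ighm (2.82, limma adjusted p = 0.0295, 0.0157 to 0.157 over the alternatives, highest with the block). None of these 4 passed without subcutaneous sorted libraries 1 and 2, which held leukocyte RNA. The contrast was then 0.94 for Rac2, 1.41 for Ctsk, 1.95 for Arg1 and 1.95 for Ighm (limma adjusted p 0.0844 to 0.163). Arg1 was high there, at 57.8 and 33.1 TPM, against 5.56 to 15.3 TPM in the other subcutaneous sorted libraries. Among serosal and mesothelial genes, Slpi (2.27, limma adjusted p = 0.0135, 0.00382 to 0.0687 over the alternatives, highest with the block), Icam2 (1.25), Gata6 (0.89) and Krt8 (2.41, limma adjusted p = 0.0452, 0.0241 with the block and 0.0066 to 0.138 over the alternatives) had larger differences than at the subcutaneous site, and of these 4 Krt8 alone passed with the block. For Krt8, whole tumours averaged below sorted cells at both sites, and the gap was narrower at the peritoneum. It had 28.9±11.0 and 31.9±2.70 TPM in peritoneal whole tumours and sorted cells, against 6.03±2.66 and 40.8±15.3 TPM in subcutaneous ones. Krt8 did not pass without whole tumour 4, nor without subcutaneous sorted libraries 1 and 2 (2.42, limma adjusted p = 0.0697).

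Among the listed genes, few had a smaller difference at the peritoneum than at the subcutaneous site, where 1.81% of all genes did. They were 1 of 3 skeletal muscle genes, 3 of 30 cell cycle genes and 1 of 20 ribosomal protein genes (Rpl32). Mylpf, a myosin light chain of skeletal muscle, was at 4.69±2.15 TPM in peritoneal whole tumours and 3.98±1.49 TPM in peritoneal sorted cells, against 65.4±49.7 and 3.01±1.11 TPM in subcutaneous whole tumours and sorted cells (contrast -3.49, SE 0.79, limma adjusted p = 0.0107, 0.00234 to 0.0676 over the alternatives, highest with the block). Rarres2, the attractant chemerin (-1.38), and Crabp1, a retinoic acid binding protein (-1.43), also had smaller differences, and neither passed with the block. Crabp1 was nearly absent from both kinds at the peritoneum, with at most 0.153 TPM in whole tumours and 0 in all sorted libraries. Its peritoneal difference is thus held near 0 by the floor. Subcutaneous whole tumours and sorted cells averaged 34.5 and 11.5 TPM. Against the pleural site 7 of 30 cell cycle genes had a smaller difference (Top2a, Cdk1, Plk1, Aurkb, Cenpe, Cenpf and Cdc20), and 0 of 30 with the block. There 1.18% of all genes had a smaller difference. Plk1, a mitotic kinase, averaged 102±6.93 TPM in peritoneal whole tumours and 52.5±5.10 TPM in peritoneal sorted cells, against 91.1±7.19 and 27.8±3.52 TPM in pleural whole tumours and sorted cells (contrast -0.73, SE 0.12, limma adjusted p = 0.00129, 0.000259 to 0.0513 over the alternatives, highest with the block). The mitotic gene Cenpf (-0.87), the long noncoding RNA Neat1 (-1.26), the cystathionase gene Cth (-1.02) and the lysosomal growth factor gene Grn (-0.87) also had a smaller difference than at the pleura, and none passed with the block. Cholesterol synthesis genes went the other way, with 9 of 12 larger against the subcutaneous site, and 2 of 12 without peritoneal sorted libraries 2 and 5. Against the pleural site 4 of 12 were larger, and 0 of 12 without those libraries. The shares of all genes that were larger were 5.13% against the subcutaneous and 1.34% against the pleural site. With the block 1 of 12 was called against the subcutaneous and 0 of 12 against the pleural site.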

How the data were processed

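Messenger RNA of 31 mouse libraries was sequenced as 50 bp single-end reads. The authors deposited TPM per gene in separate tables for whole tumours and sorted cells; per the submitters' processing notes kallisto and GRCm39 were used, with version, annotation and filters not given in the sources used here. Genes listed under the same symbol in both tables were kept (303 sorted-cell entries had none, 150 of them joined through older RefSeq symbols as an alternative), and each library was rescaled to 1000000 over shared genes. A pseudocount of 1 was used, with genes kept at 1 TPM in at least 5 libraries. Whole tumours and sorted cells were described by fold (8) and overlap, with no test. Contrasts between sites were fitted with limma 3.58.1 in R 4.3.3 (empirical Bayes with trend, 6 groups), tested on simulated data beforehand, with p-values adjusted over 12128 genes.

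The members and the 40 gene lists were chosen with earlier results of these data known. Named genes were the 12 largest differences each way among called genes at 10 TPM or more, the 3 largest in each list, a fixed list, the 6 largest contrasts each way per site and the 10 highest genes listed for whole tumours alone, without predicted names; other genes were named after their values were seen. The labels give whole tumours and sorted cells the same mouse numbers (4 peritoneal pairs), which was taken as a shared animal, although deviations of same-numbered peritoneal libraries correlated at -0.12 to 0.08. Read depth is unknown, so no counting error can be given. 1 gene that the rule names is not reported here.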

Additional observations from a re-analysis of the deposited data

Results flagged for a closer look

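Among 178 groups of libraries examined for the named genes, chance would set about 1 in 20 apart. In whole tumours, replicate 7 stood above the other peritoneal libraries for Ptprc (63.3 TPM), Cx3cr1 (36.9 TPM), Cd79a (47.1 TPM), Hba-a1 (2210.0 TPM) and Hbb-bs (2010.0 TPM). Whole tumour 2 was low for Saa3 (106 TPM) and Timp3 (11.5 TPM) and high for Col1a1 (566 TPM). Whole tumour 4 was high for Folr2 (20.9 TPM) and Mylpf (8.48 TPM) and apart for Krt18 (15.5 TPM).

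In sorted cells, replicate 1 stood high for Ctsc (9.37 TPM), Ccr2 (0.990 TPM) and Grn (119 TPM), and replicate 2 for Hba-a1 (66.0 TPM) and Hbb-bs (84.0 TPM). Sorted library 3 stood high for Nr4a1 (520 TPM), Cxcl2 (79.4 TPM), Timp3 (2.07 TPM), Cdhr5 (577 TPM), Sgk1 (23.2 TPM) and Tnfaip3 (83.6 TPM), and apart for Plk1 (43.6 TPM) and Rps2 (752 TPM).

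The whole-minus-sorted difference was larger at the peritoneal than at the subcutaneous site by limma's contrast for mt-Nd3 (2.93), Arg1 (2.88), Ighm (2.82), Igfbp3 (2.71), Ctsk (2.69), Col15a1 (2.61), Hspa1a (2.56), Tagln (2.53), Krt8 (2.41), Slpi (2.27), Tnfaip3 (2.23), Thy1 (2.20), Sgk1 (2.10) and Timp3 (2.04). Contrasts under 2 log2 units were those of Rac2 (1.93), mt-Nd1 (1.92), Acta2 (1.76), Mmp2 (1.74), Fosb (1.64), mt-Nd6 (1.37), Plvap (1.31), Icam2 (1.25), Eng (1.11), Pecam1 (1.06) and Gata6 (0.89). It was smaller for Mylpf (-3.49), Crabp1 (-1.43), Rarres2 (-1.38) and Plk1 (-0.50).

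Against the pleural site the difference was larger for mt-Nd3 (2.91), Sgk1 (2.53), Cxcl2 (2.46), Tnfaip3 (2.33), mt-Nd1 (1.90) and mt-Nd6 (1.21). It was smaller for Neat1 (-1.26), Cth (-1.02), Cenpf (-0.87), Grn (-0.87) and Plk1 (-0.73).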

How the results depend on the processing

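The counts of 289 higher and 20 lower genes were 464 and 32 at 4-fold, and 141 and 11 at 16-fold, and without predicted and pseudogene names 13 genes were lower. A pseudocount of 0.1 gave 379 higher and 28 lower genes, and median-of-ratios scaling 253 and 25. Leaving out 1 library gave 280 to 298 higher and 20 to 25 lower genes, with the number of libraries in the filter following the smaller group. Within pairs by mouse number (replicate block) 275 were higher and 25 lower, and within pairs by the deposited library number 281 and 24. Between the peritoneal and subcutaneous sites, 842 genes became 452 with only those sites fitted, 48 with the replicate block, 143 at an adjusted p below 0.01, 198 without peritoneal sorted libraries 2 and 5, and 392 to 1837 without 1 library. Median-of-ratios scaling gave 1207, of which 56.4% were larger, against 73.9% as reported. Between the peritoneal and pleural sites, 306 became 513 under median-of-ratios scaling, 571 with limma's arrayWeights (167 larger, 404 smaller), 7 with the replicate block, 58 at an adjusted p below 0.01, 200 without those libraries (59 larger, 141 smaller) and 152 to 530 without 1 library. The causes of these shifts were not tested, except that the stricter limits pass fewer genes by construction. Leaving out the sorted libraries, setting names aside and the older symbols were chosen after seeing the data. No named gene's called direction was reversed, but the balance of larger and smaller genes against the pleural site turned under 5 settings, as given with that comparison. Without subcutaneous sorted libraries 1 and 2 the count was 815 (500 larger, 315 smaller).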
